A study of Mus musculus with 12 samples.

Results

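The Zbtb genes encode proteins with a BTB domain and zinc fingers, and they were examined here in bone marrow-derived macrophages of C57BL/6 mice, cells grown from cultured bone marrow, exposed for 1 h to an allergen preparation of house dust mite (HDM) or to vehicle alone. Members were all genes of the count table whose symbol is Zbtb followed by a number, with or without final letters. There were 41 such genes among the 50559 in the table. Of these, 38 had a mean of at least 0.5 CPM (read counts scaled to library size) over the 12 libraries and are described below, and all 38 passed the filter on low counts and were tested. The 6 HDM libraries and the 6 vehicle libraries carry the same numbers, 1 to 6, and no genotype other than the strain is given, although the series concerns AKAP79/150, a scaffold protein that anchors kinases and phosphatases. Whether each library is a mouse or culture of its own is not stated in the labels; p-values therefore reflect only how much these libraries vary, and that variation may be technical.

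BTB zinc finger proteins are transcription factors. The BTB domain near the amino terminus pairs 1 protein with another and docks corepressors such as NCOR1 and BCOR, while the C2H2 zinc fingers near the other end read DNA, so that most members studied act as repressors. The family is best known for fate decisions of blood cells: Zbtb7b (ThPOK) for helper T cells, Zbtb16 (PLZF) for innate-like lymphocytes and Zbtb46 as a marker of classical dendritic cells. In macrophages, several members have been linked to the control of NF-kB target genes, among them Zbtb7a, Zbtb16 and Zbtb20.

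Library depth ran from 19685273 to 119709894 counted reads, with vehicle 5 and HDM 3 the shallowest and HDM 1 the deepest. Several members differed between libraries numbered 5 and 6 and those numbered 1 to 4 in both groups. Values within these subsets are therefore given for Zbtb genes where they bear on a result. Single genes of the other lists below have no such values here. The cells carried macrophage markers: the summed level of 8 genes (among them Adgre1, Csf1r and Cd68) was 16573 to 20397 CPM with HDM and 16328 to 20797 CPM with vehicle. Markers of dendritic cells summed to 0.467 to 1.59 CPM with HDM and 0.466 to 1.1 CPM with vehicle, those of lymphocytes to 0.12 to 0.511 and 0.108 to 0.581 CPM, and those of neutrophils to 3.86 to 6.44 and 3.51 to 5.93 CPM. Mast cell, basophil and eosinophil markers summed to 3.56 to 6.56 CPM with HDM and 2.69 to 5.28 CPM with vehicle, and those of stroma and endothelium to 1.73 to 4.72 and 2.37 to 5.26 CPM. The erythroid and megakaryocyte list, at 102.6 to 196.7 and 96.98 to 186.3 CPM, was carried by Pf4, which macrophages also express, and Hba-a1 and Hbb-bs had 0 reads, as did Retnlg of neutrophils and Mcpt8 of basophils. No tested gene of these 7 lists was called between HDM and vehicle, and the summed ranges of both groups overlapped for each list. With the library number as a block, Col1a1 of the stromal list was called lower, at 1.11 ± 0.649 CPM in vehicle and 0.449 ± 0.328 CPM with HDM (adjusted p = 0.00141); its part in the results below was not tested.

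Of the 41 Zbtb genes, 38 had a mean of at least 0.5 CPM in these macrophages. Summed over the 38 genes, the family's transcripts took 843 to 926 CPM with HDM and 856 to 940 CPM with vehicle. Because longer transcripts collect more reads, levels of different genes were compared as CPM per kb of annotated exon. On that scale Zbtb7a, the gene of LRF, a regulator of lineage choice in B, T and erythroid cells, was highest in vehicle at 22.6 ± 0.677 (SD, n = 6). Zbtb22, a less studied member, followed at 14.3 ± 0.349, Zbtb7b at 12.8 ± 1.08 and Zbtb4, whose product binds methylated CpG, at 10.4 ± 0.31 CPM per kb. The SD ranges of Zbtb22 and Zbtb7b do not meet in vehicle, but they overlap with HDM, where the levels were 13.6 ± 0.738 and 14.2 ± 1.66 CPM per kb. At the lower end were Zbtb32, at 0.251 ± 0.057, Zbtb26, at 0.19 ± 0.0283, and Zbtb16, at 0.124 ± 0.0603 CPM per kb in vehicle.

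**Figure D1:**
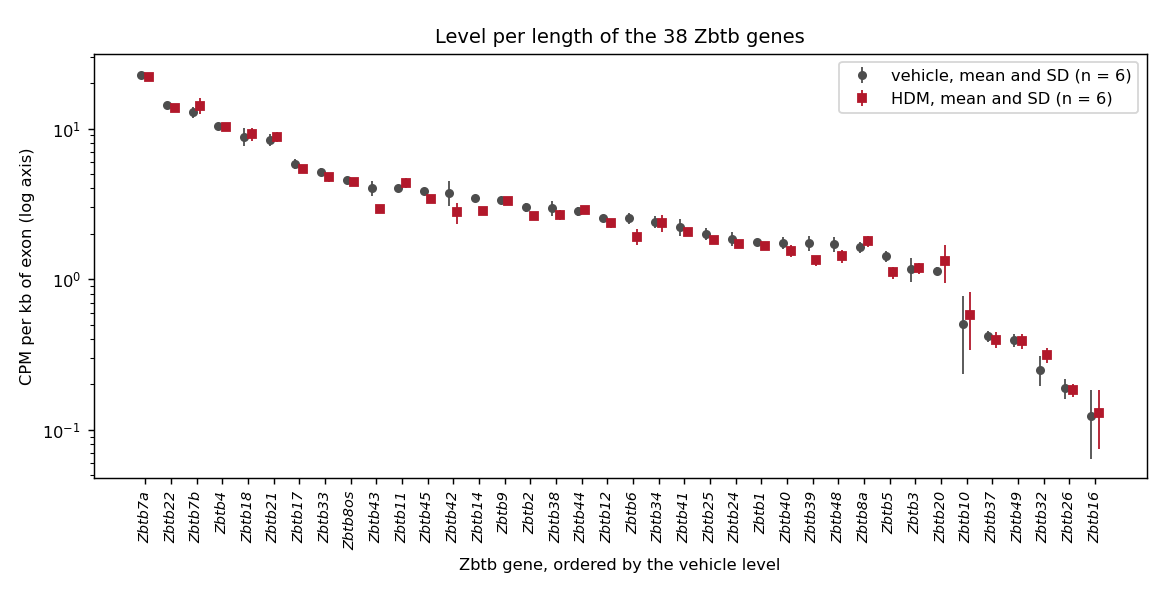
Level of each of the 38 Zbtb genes as CPM per kb of annotated exon (log axis), ordered by the vehicle level; circles are vehicle and squares HDM, mean and SD of 6 libraries. Zbtb7a lies highest at 22.6 in vehicle and Zbtb16 lowest at 0.124, and the first 4 are the same genes with HDM, with Zbtb7b above Zbtb22.

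Among the members under 0.5 CPM, Zbtb46 had 125 reads in total, of which HDM libraries gave 77 and vehicle libraries 48, from 2 to 29 per library. Zbtb7c had 8 reads, 3 with HDM and 5 with vehicle, and Zbtb8b had 4, all with HDM. None of these genes passed the filter, and none was tested.

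After 1 h of HDM, 5 of the 38 Zbtb genes fell and none rose. The genes that fell were Zbtb43, Zbtb14, Zbtb6, Zbtb39 and Zbtb5, each to between 0.729 and 0.826 of its vehicle level. Falls were called for 2.47% of all 13530 tested genes and rises for 2.9%, by the same test (edgeR's quasi-likelihood test, Benjamini-Hochberg adjusted p under 0.05). At an unadjusted p under 0.05, 12 Zbtb genes were lower and 1, Zbtb11, was higher, against 7.13% and 6.83% of all tested genes. DESeq2 and limma-voom also called 0 rises, where they called 526 and 410 of all 13530 tested genes higher. With the library number as a block, both counts were larger, at 12 falls and 2 rises, against 6.81% and 7.9% of all tested genes. The median log2 ratio (log2 fold change of HDM over vehicle) of the 38 genes was -0.08, with 27 below 0 and 11 above, against a median of -0.005 over all tested genes. In bulk RNA, fewer cells of a kind and less RNA per cell cannot be told apart.

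**Figure D2:**
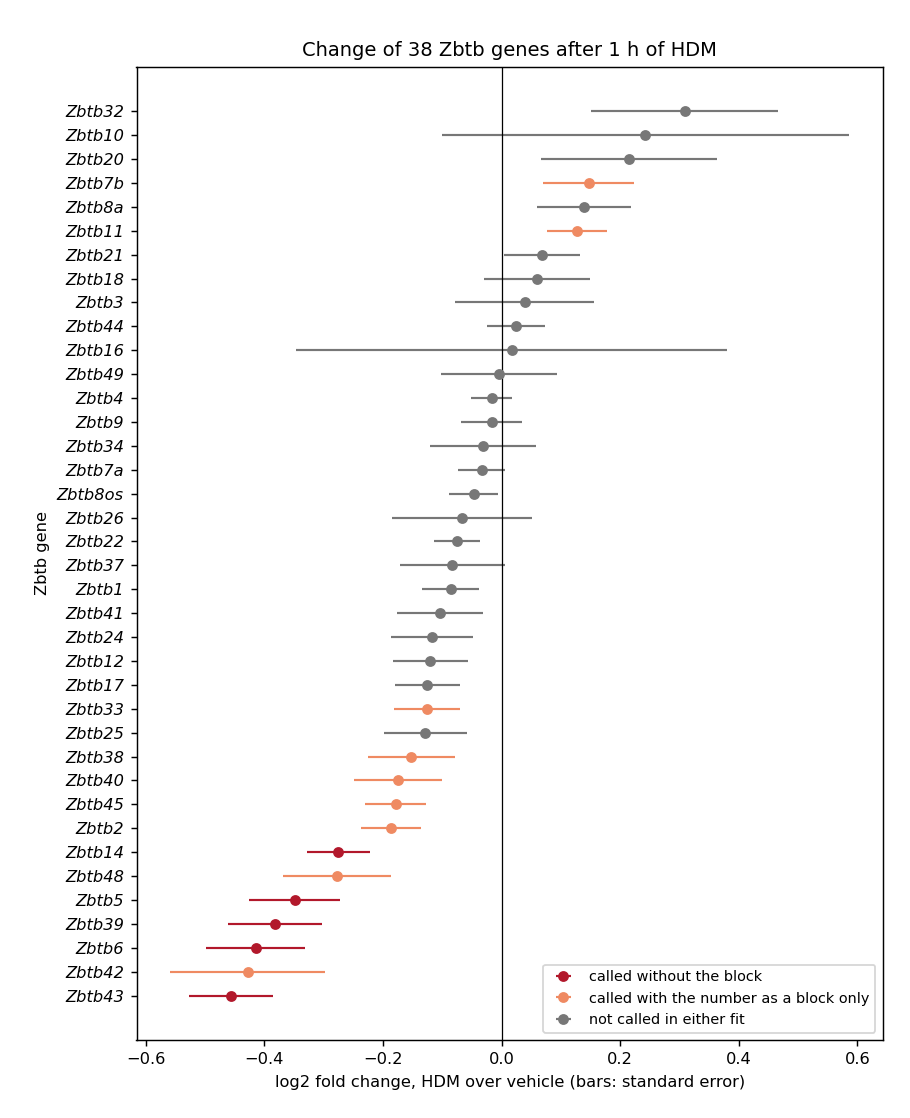
Log2 fold change of HDM over vehicle for the 38 Zbtb genes, with standard errors, from the fit with group as the only term; colour marks genes called in that fit, genes called only with the library number as a block, and the rest. All 5 genes called in that fit lie between -0.46 and -0.28, and no gene is called above 0 there.

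Zbtb43 had the lowest log2 ratio of the 38, though Zbtb42 and Zbtb6 lay within 1 SE of it, and in numbers 5 and 6 alone Zbtb6 was lower (-0.64 against -0.56). Its product is a zinc finger protein studied in germ cells, where it acts on DNA structure. Levels in vehicle ran from 19.04 to 24.2 CPM with a median of 19.9, and with HDM from 14.3 to 16.8 CPM with a median of 15.2. Every HDM library lay under every vehicle library. In the order of their numbers, the vehicle libraries read 19.04, 19.8, 19.5, 20.03, 23.8 and 24.2 CPM of Zbtb43 and the HDM libraries 14.6, 14.6, 15.8, 14.3, 15.9 and 16.8 CPM. The mean went from 21.04 ± 2.31 to 15.3 ± 0.972 CPM (SD, n = 6 each), a log2 ratio of -0.46 ± 0.07 SE (adjusted p = 0.0015; blocked adjusted p = 5.01e-07). Such complete separation downward was seen in 2.07% of all tested genes and upward in 2.32%, and among the Zbtb genes in 3 downward and 0 upward. In vehicle, numbers 5 and 6 held the highest Zbtb43 levels, 23.8 and 24.2 CPM, and the fall was to 0.757 of vehicle among numbers 1 to 4 and to 0.681 among numbers 5 and 6.

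Zbtb14, the gene of ZF5, first described as a repressor at the Myc promoter, ran from 14.97 to 17.4 CPM in vehicle (median 15.96) and from 11.7 to 14.1 CPM with HDM (median 13.6). In the order of their numbers, the vehicle libraries read 14.97, 15.7, 17.4, 15.6, 16.2 and 16.7 CPM of Zbtb14 and the HDM libraries 13.1, 11.7, 14.1, 13.6, 13.8 and 13.6 CPM. Its groups did not overlap either. The log2 ratio was -0.28 ± 0.05 SE (adjusted p = 0.00752), and it was nearly the same size in both subsets, at 0.824 of vehicle in numbers 1 to 4 and 0.832 in numbers 5 and 6. RefSeq places another protein-coding gene model, Gm49894, over 1007 bases of Zbtb14, and without a stated strand setting reads of the overlap cannot be assigned with certainty.

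Zbtb6 and Zbtb39 are among the less characterised members. Zbtb6 lay at 11.4 to 14.4 CPM in vehicle (median 12.9) and at 8.38 to 11.6 CPM with HDM (median 9.7). A single library, HDM 3 at 11.6 CPM, lay above the lowest vehicle library, vehicle 1 at 11.4 CPM. In the order of their numbers, the vehicle libraries read 11.4, 12.1, 13.5, 12.4, 14.4 and 13.8 CPM of Zbtb6 and the HDM libraries 8.64, 9.74, 11.6, 10.3, 8.38 and 9.67 CPM. The log2 ratio of Zbtb6 was -0.41 ± 0.08 SE (adjusted p = 0.00963). Zbtb39 lay at 8.83 to 11.95 CPM in vehicle (median 10.1) and at 7.28 to 8.93 CPM with HDM (median 7.85), again with HDM 3 alone reaching into the vehicle range. In the order of their numbers, the vehicle libraries read 8.83, 9.61, 9.80, 11.3, 10.4 and 11.95 CPM of Zbtb39 and the HDM libraries 7.28, 7.42, 8.93, 7.64, 8.27 and 8.06 CPM. The log2 ratio of Zbtb39 was -0.38 ± 0.08 SE (adjusted p = 0.0121). In numbers 5 and 6 the HDM mean was 0.64 of vehicle for Zbtb6 and 0.731 for Zbtb39, and in numbers 1 to 4 it was 0.817 and 0.791.

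Zbtb5, whose product represses Cdkn1a, the gene of the cell cycle inhibitor p21, lay at 7.17 to 8.85 CPM in vehicle (median 7.74) and at 5.58 to 7.08 CPM with HDM (median 6.15). In the order of their numbers, the vehicle libraries read 7.17, 7.72, 8.85, 7.75, 7.45 and 8.66 CPM of Zbtb5 and the HDM libraries 6.69, 6.17, 6.12, 7.08, 5.58 and 5.69 CPM. The groups did not overlap, and the log2 ratio was -0.35 ± 0.08 SE (adjusted p = 0.0166). This was the least certain of the 5 calls. Without numbers 5 and 6 the log2 ratio of Zbtb5 was -0.26 and the call was lost (adjusted p = 0.0798), whereas the other 4 genes were called in that subset too. Leaving out any 1 of the 12 libraries ended none of the 5 calls.

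**Figure D3:**
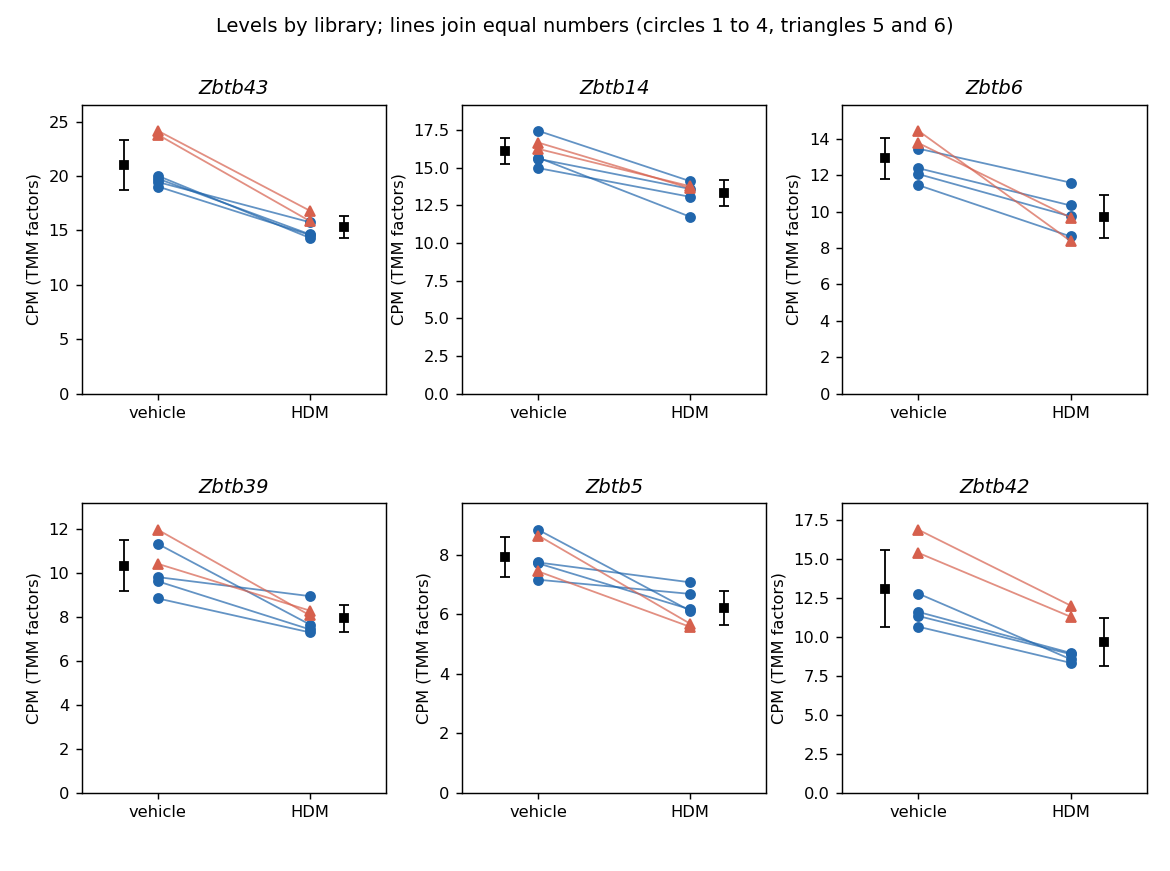
CPM of the 5 Zbtb genes that fell and of Zbtb42 in each library; lines join the vehicle and HDM libraries of equal number (circles 1 to 4, triangles 5 and 6), and black squares give mean and SD of 6 libraries. Every line runs downward from vehicle to HDM.

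The start regions of the 5 genes that fell were looked at for shared sequence. RefSeq promoters (GRCm38.p6, 250 bases before to 50 after each annotated start) were found for 34 of the 38 genes, in 47 windows. The 250 bases before the start are shown for the 5 genes because they are the members whose fall was called, 5′ to 3′ on the gene's strand. Capitals mark the GC box GGGCGG, bound by Sp factors, and the ETS motif CCGGAAG, on either strand. For Zbtb14 the last of 3 annotated starts is shown because GC boxes lie in the 250 bases before it. The 250 bases before each of its other starts hold none of the marked motifs.
Zbtb43 (chr2:33468533-33468782, minus strand): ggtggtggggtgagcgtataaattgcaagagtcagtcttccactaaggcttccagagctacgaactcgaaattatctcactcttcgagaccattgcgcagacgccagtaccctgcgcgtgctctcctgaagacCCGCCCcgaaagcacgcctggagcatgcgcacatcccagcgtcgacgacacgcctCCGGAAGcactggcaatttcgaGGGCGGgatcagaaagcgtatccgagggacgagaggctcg
Zbtb14 (chr17:69383554-69383803, plus strand): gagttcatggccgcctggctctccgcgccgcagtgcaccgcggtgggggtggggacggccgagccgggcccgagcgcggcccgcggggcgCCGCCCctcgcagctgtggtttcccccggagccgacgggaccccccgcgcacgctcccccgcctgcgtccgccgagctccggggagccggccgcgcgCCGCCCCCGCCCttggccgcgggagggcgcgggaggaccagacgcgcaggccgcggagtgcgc
Zbtb6 (chr2:37430920-37431169, minus strand): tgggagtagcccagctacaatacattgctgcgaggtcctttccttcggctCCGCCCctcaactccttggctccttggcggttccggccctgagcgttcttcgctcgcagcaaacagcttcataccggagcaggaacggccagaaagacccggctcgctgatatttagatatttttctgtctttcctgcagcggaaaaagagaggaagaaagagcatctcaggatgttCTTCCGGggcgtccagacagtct
Zbtb39 (chr10:127739280-127739529, plus strand): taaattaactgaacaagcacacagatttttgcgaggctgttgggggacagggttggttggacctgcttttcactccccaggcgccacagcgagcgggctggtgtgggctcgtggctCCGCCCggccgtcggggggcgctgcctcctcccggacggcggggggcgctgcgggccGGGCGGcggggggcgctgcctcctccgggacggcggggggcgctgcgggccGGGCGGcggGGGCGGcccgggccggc
Zbtb5 (chr4:45012413-45012662, minus strand): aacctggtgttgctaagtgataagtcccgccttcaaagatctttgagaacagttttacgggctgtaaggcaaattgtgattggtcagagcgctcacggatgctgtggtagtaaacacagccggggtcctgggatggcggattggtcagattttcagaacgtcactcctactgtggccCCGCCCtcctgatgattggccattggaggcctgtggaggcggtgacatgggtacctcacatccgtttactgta

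All 5 hold a GC box in at least 1 window, as do 27 of the 34 Zbtb genes with a window. Counted by window, 70.2% of the 47 Zbtb windows held one, against 35.7% of all 32851 windows in the table. The ETS motif was found in Zbtb43 and Zbtb6, and in 25.5% of the Zbtb windows against 8.86% of all. The CCAAT box (CCAAT) was found in Zbtb5, and in 29.8% of the Zbtb windows against 37.4% of all. The family's start regions were rich in G and C, at a median of 65.3% over the 47 windows against 52.7% over all windows. Searched on both strands, the AP-1 motif TGANTCA (7.81% of all windows) was found in none of the 34 genes, and a kB-like motif GGANTTTCC (1.25%) in Zbtb26 alone. The E-box CACGTG was found in 12.8% of the Zbtb windows against 7.15% of all, and in none of the 5 genes that fell. The full cAMP response element TGACGTCA (1.79% of all windows) was found in 1 window each of Zbtb11 and Zbtb21. Matches of different motifs were counted separately, also where they overlap. A match is a description of letters, not a bound site, and a motif that was not found may lie outside these windows.

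Library numbers were taken to pair the libraries, though the check behind this cannot tell pairs from the split of numbers 5 and 6. With the number as a block 12 Zbtb genes fell and 2 rose, where 6.81% and 7.9% of all tested genes were called in the same directions. The genes that rose were Zbtb7b and Zbtb11. The 12 include all 5 named above, and the other 7 are Zbtb42, Zbtb40, Zbtb45, Zbtb2, Zbtb38, Zbtb33 and Zbtb48. In numbers 1 to 4 alone, the blocked calls of Zbtb42, Zbtb40, Zbtb45 and Zbtb7b held, and those of Zbtb2 (adjusted p = 0.135), Zbtb38 (0.145), Zbtb33 (0.0731), Zbtb48 (0.277) and Zbtb11 (0.199) were lost. Rises of Zbtb20 (adjusted p = 0.00939), Zbtb18 (0.0253) and Zbtb10 (0.0481) were called with the block in numbers 1 to 4 but not over all 12 libraries. Lower values with HDM in all 6 numbers were found for 13 of the 38 Zbtb genes and for 8.95% of all tested genes, and higher values in all 6 for 2 Zbtb genes, Zbtb7b and Zbtb8a, and for 8.97% of all tested genes.

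Zbtb42, whose product is a repressor in skeletal muscle, had a change as large as those of the called genes but a wider spread. In vehicle it lay at 10.6 to 12.8 CPM in numbers 1 to 4 and at 15.4 and 16.9 CPM in numbers 6 and 5. With HDM it lay at 8.33 to 8.97 CPM in numbers 1 to 4 and at 11.3 and 12.01 CPM in numbers 6 and 5. Numbers 5 and 6 were thus high in both groups, and the ratio of HDM to vehicle was alike in the subsets, at 0.75 in numbers 1 to 4 and 0.722 in numbers 5 and 6. The log2 ratio was -0.43 ± 0.13 SE (adjusted p = 0.0888) without the block and -0.43 ± 0.05 SE with it (adjusted p = 5.05e-06). Without HDM 5, Zbtb42 was called without the block too (adjusted p = 0.0482).

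Of the 5 members listed under telomeres, chromatin and ribosome biogenesis, 2 fell without the block (Zbtb43 and Zbtb14), and with it 4 fell and 1 rose. Over all tested genes, 2.47% fell without the block, and with it 6.81% fell and 7.9% rose. The role lists used here and below were set with earlier results of these data known, so a count within a list is not a result about that role. Zbtb48, the gene of the telomere-binding protein TZAP, was at 5.51 ± 0.627 CPM in vehicle and 4.53 ± 0.466 CPM with HDM (log2 ratio -0.28 ± 0.09 SE, adjusted p = 0.121; blocked adjusted p = 0.0272). Its ratio was 0.905 in numbers 1 to 4 and 0.68 in numbers 5 and 6. Zbtb40, at 18.6 ± 1.73 and 16.5 ± 1.51 CPM, had a log2 ratio of -0.17 ± 0.07 SE (adjusted p = 0.281; blocked adjusted p = 0.00399). Zbtb11, which is needed in blood development of zebrafish, went the other way, from 29.8 ± 1.47 to 32.5 ± 2.34 CPM (log2 ratio 0.13 ± 0.05 SE, adjusted p = 0.237; blocked adjusted p = 0.0329). It was higher with HDM in 5 of 6 numbers, and in numbers 5 and 6 alone its log2 ratio was 0.24 (adjusted p = 0.00544). With upper-quartile factors or total library size in the blocked fit Zbtb11 was not called. An antisense gene, Zbtb11os1, overlaps 1350 bases of Zbtb11, and their reads cannot be told apart without the strand setting.

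Zbtb11 is also 1 of the 2 members whose start region holds the full cAMP response element, the motif read by CREB factors downstream of protein kinase A. Its window is shown for that reason, with capitals marking that motif, the GC box and the ETS motif.
Zbtb11 (chr16:55973554-55973803, plus strand): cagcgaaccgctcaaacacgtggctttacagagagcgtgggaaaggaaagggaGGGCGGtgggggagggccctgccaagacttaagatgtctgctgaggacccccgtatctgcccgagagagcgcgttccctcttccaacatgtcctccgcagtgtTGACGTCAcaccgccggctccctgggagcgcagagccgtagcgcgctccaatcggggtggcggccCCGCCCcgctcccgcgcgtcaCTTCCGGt

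Zbtb21, the other holder of this motif, was at 53.3 ± 4.63 CPM in vehicle and 55.8 ± 4.06 CPM with HDM (log2 ratio 0.07 ± 0.06 SE, adjusted p = 0.843). Counted by window, the motif was found in 4.26% of the Zbtb windows against 1.79% of all. Whether it bears on the level of either gene was not tested.

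Among the 5 members listed under control of the cell cycle, p53 or Myc, a list that leaves Zbtb14 to the chromatin list, Zbtb5 fell, and Zbtb2, another repressor of Cdkn1a, was close to the threshold. Zbtb2 lay at 19.9 to 24.0 CPM in vehicle (median 22.05) and 18.1 to 21.1 CPM with HDM (median 19.3), with a log2 ratio of -0.19 ± 0.05 SE (adjusted p = 0.0513; blocked adjusted p = 0.00995). Its fall was also called with DESeq2, with upper-quartile factors, with total library size and with robust edgeR, and not in numbers 1 to 4 alone (-0.13, adjusted p = 0.209). Leaving out HDM 2 or vehicle 1 also gave a call, with an adjusted p of 0.0232 at the lowest. Zbtb17, the gene of MIZ1, which binds MYC and turns it into a repressor, was at 22.7 ± 1.68 and 20.8 ± 1.15 CPM (log2 ratio -0.13 ± 0.05 SE, adjusted p = 0.313; blocked adjusted p = 0.0547). Zbtb49, whose product activates Cdkn1a, was at 3.26 ± 0.32 CPM in vehicle and 3.24 ± 0.371 CPM with HDM.

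Of the 3 methyl-CpG binding members, none was called without the block and 2 fell with it, where 6.81% of all tested genes did. Zbtb33, the gene of Kaiso, was at 26.5 ± 1.62 and 24.3 ± 1.75 CPM (log2 ratio -0.13 ± 0.06 SE, adjusted p = 0.317; blocked adjusted p = 0.0183). Zbtb38 was at 34.8 ± 3.87 and 31.3 ± 2.37 CPM (-0.15 ± 0.07 SE, adjusted p = 0.391; blocked adjusted p = 0.0115). The log2 ratio of Zbtb38 was -0.25 in numbers 5 and 6 (adjusted p = 0.00168) and -0.10 in numbers 1 to 4 (adjusted p = 0.253). Zbtb4, the most abundant of the 3, was at 84.3 ± 2.52 CPM in vehicle and 83.4 ± 3.99 CPM with HDM, a log2 ratio of -0.02 ± 0.03 SE (adjusted p = 0.998).

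The 8 tested members known for lymphoid and myeloid lineage control included none that was called without the block, where 5.37% of all tested genes were. Zbtb7a, the most abundant member, was at 153 ± 4.61 CPM in vehicle and 149.9 ± 8.95 CPM with HDM (log2 ratio -0.03 ± 0.04 SE, adjusted p = 0.917). Zbtb7b was higher with HDM in all 6 numbers, at 64.9 to 79.4 CPM in vehicle and 70.9 to 91.5 CPM with HDM, with overlapping groups. Its log2 ratio was 0.15 ± 0.08 SE (adjusted p = 0.452) without the block and 0.15 ± 0.03 SE with it (adjusted p = 0.00194). Zbtb1, needed for lymphocyte development, Zbtb24, mutated in an immunodeficiency with loss of DNA methylation, and Zbtb25, studied in T cells, had log2 ratios of -0.09 to -0.13, none called in either fit. Zbtb1 and Zbtb25 are neighbours that overlap by 164 bases in RefSeq. Zbtb32, which restrains cytokine genes in lymphocytes, had the largest positive value, 0.31 ± 0.16 SE (adjusted p = 0.439), at 0.592 ± 0.134 CPM in vehicle and 0.739 ± 0.0851 CPM with HDM.

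Zbtb10 and Zbtb16 differed more between libraries numbered 5 and 6 and those numbered 1 to 4 than between treatments. Zbtb10, described as a repressor of Sp factor genes, lay at 1.83 to 3.12 CPM in vehicle numbers 1 to 4 and at 5.95 and 6.57 CPM in vehicle numbers 6 and 5. With HDM it lay at 2.94 to 3.43 CPM in numbers 1 to 4 and at 6.58 and 6.69 CPM in numbers 6 and 5. The mean in numbers 5 and 6 was thus 2.52 times that of numbers 1 to 4 in vehicle and 2.1 times with HDM, a wider gap than that between treatments (log2 ratio 0.24 ± 0.34 SE, adjusted p = 0.953; blocked adjusted p = 0.0644). In numbers 1 to 4 alone, with the block, the log2 ratio of Zbtb10 was 0.38 (adjusted p = 0.0481). Zbtb16 differed between the subsets in the opposite direction, with the mean of numbers 5 and 6 at 0.339 of that of numbers 1 to 4 in vehicle and 0.38 with HDM. Its level was low, at 404 reads over the 12 libraries, and its log2 ratio between treatments was 0.02 ± 0.36 SE (adjusted p = 1.00).

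Zbtb20, which has been reported to enhance Toll-like receptor responses in macrophages, varied widely with HDM and little without it. Vehicle libraries lay at 32.9 to 37.6 CPM. HDM libraries numbered 2, 3 and 4 lay at 59.6, 44.8 and 45.5 CPM, above every vehicle library. HDM 1, HDM 5 and HDM 6 lay at 32.4, 32.7 and 28.99 CPM, under every vehicle library. The mean with HDM was 1.33 times that of vehicle in numbers 1 to 4 and 0.842 times in numbers 5 and 6. Within numbers 1 to 4, number 1 went the other way, with a log2 ratio of -0.09. Over all 12 libraries the log2 ratio was 0.21 ± 0.15 SE (adjusted p = 0.675), and without HDM 2 it was 0.08. In numbers 5 and 6 alone it was -0.23 (adjusted p = 0.00716), and in numbers 1 to 4 it was 0.40 (adjusted p = 0.104; blocked adjusted p = 0.00939). The difference between the subsets was not tested. Other RefSeq genes lie within or across the long Zbtb20 locus, among them Tigit and several noncoding Gm models.

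**Figure D4:**
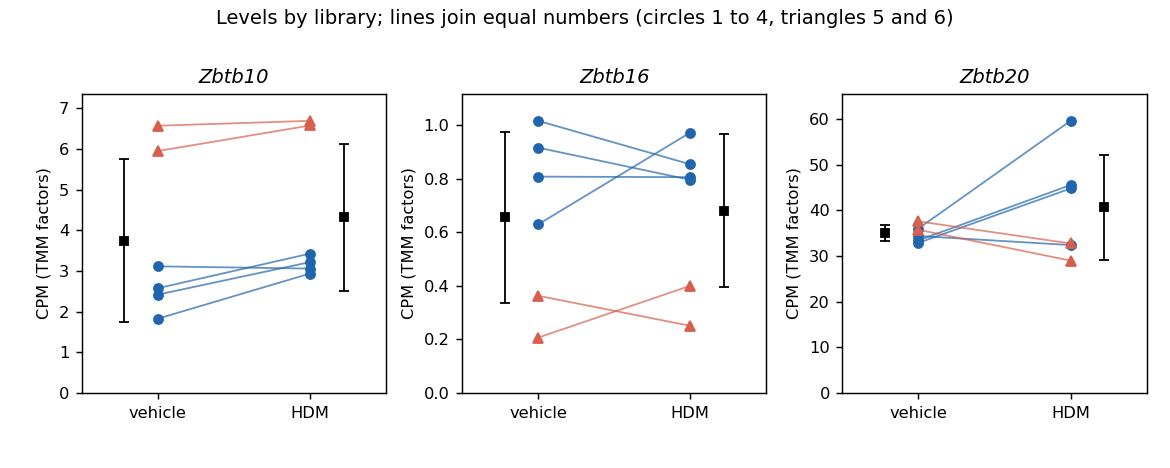
CPM of Zbtb10, Zbtb16 and Zbtb20 in each library; lines join equal numbers (circles 1 to 4, triangles 5 and 6), and black squares give mean and SD of 6 libraries. Numbers 5 and 6 lie highest for Zbtb10 and lowest for Zbtb16 in both groups. For Zbtb20 HDM libraries 2, 3 and 4 lie above all vehicle libraries and HDM libraries 1, 5 and 6 under all of them.

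Of the 5 tested members known as repressors in neural, muscle and other tissues, none was called without the block. With it Zbtb42 and Zbtb45 fell, where 6.81% of all tested genes did. Zbtb45, linked to glial differentiation, was at 16.1 ± 0.846 and 14.3 ± 0.879 CPM (log2 ratio -0.18 ± 0.05 SE, adjusted p = 0.0691; blocked adjusted p = 0.00609), and limma-voom and DESeq2 also called it, as did edgeR without vehicle 6 (adjusted p = 0.0375). Zbtb18, the gene of RP58, a repressor in neurons, was at 54.1 ± 7.43 and 56.4 ± 5.33 CPM and was not called. Zbtb12 had a log2 ratio of -0.12 ± 0.06 SE (adjusted p = 0.463).

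Of the 11 less characterised members, Zbtb6 and Zbtb39 fell, where 2.47% of all tested genes did without the block. The other 9 (Zbtb3, Zbtb8a, Zbtb9, Zbtb22, Zbtb26, Zbtb34, Zbtb37, Zbtb41 and Zbtb44) were called in neither fit, with log2 ratios from -0.10 to 0.14. Zbtb22 was lower with HDM in all 6 numbers but by little, at 38.3 ± 0.932 and 36.4 ± 1.97 CPM. Zbtb8a was higher with HDM in all 6, at 3.78 ± 0.311 CPM in vehicle and 4.16 ± 0.343 CPM with HDM (log2 ratio 0.14 ± 0.08 SE, adjusted p = 0.529). Zbtb8os meets the naming rule only through its location beside Zbtb8a: it encodes archease, a cofactor of the tRNA ligase, and has no BTB domain. It was at 20.6 ± 1.00 and 19.96 ± 0.697 CPM (log2 ratio -0.05 ± 0.04 SE, adjusted p = 0.808).

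The neighbouring members of Zbtb6 and Zbtb43 were called in neither fit. Zbtb6 lies 1248 bases from Zbtb26 on chromosome 2, and Zbtb26 was at 1.8 ± 0.268 CPM in vehicle and 1.74 ± 0.171 CPM with HDM (log2 ratio -0.07 ± 0.12 SE, adjusted p = 0.983). On the same chromosome Zbtb43 lies 18962 bases from Zbtb34, which was at 15.9 ± 1.53 and 15.6 ± 2.04 CPM (-0.03 ± 0.09 SE, adjusted p = 1.00). By number, Zbtb26 had log2 ratios of -0.39, -0.12 and -0.23 in numbers 1 to 3, where Zbtb6 had -0.41, -0.31 and -0.22. In numbers 4 to 6 they were 0.31, 0.04 and 0.16 for Zbtb26 and -0.26, -0.78 and -0.51 for Zbtb6. The difference between neighbours was not tested. The 5 genes that fell had 4.68 to 5.96 kb of annotated exon, within the range of 2 to 30.73 kb over all 38.

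BTB zinc finger genes that carry other names were looked at beside the Zbtb genes. Of 8, 7 were tested, and 1 rose and none fell, where 2.9% and 2.47% of all tested genes did. The gene that rose was Bcl6, whose product restrains inflammatory genes in macrophages. Bcl6 lay at 69.8 to 79.7 CPM in vehicle (median 71.6) and at 82.9 to 91.5 CPM with HDM (median 88.9), a log2 ratio of 0.26 ± 0.04 SE (adjusted p = 0.00289). Its groups did not overlap, as for 2.32% of all tested genes in that direction. Hic2 was at -0.27 ± 0.10 SE (adjusted p = 0.188, blocked adjusted p = 0.0279), and with the block 6.81% of all tested genes fell. Gzf1, Patz1, Zfp131, Mynn and Bcl6b were not called in either fit, and Hic1, with 106 reads, was not tested. The median log2 ratio of the 7 was -0.02.

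Of the 30 corepressor and partner genes of BTB proteins, 2 rose and none fell by edgeR, which is 6.67% called where 5.37% of all tested genes were. At an unadjusted p under 0.05, 4 were higher and 2 lower, against 6.83% and 7.13% of all tested genes. Limma-voom called 2 genes and DESeq2 3, both including the 2 that rose, where they called 780 and 955 of all 13530. The list's median log2 ratio was 0.03. Myc, whose protein binds MIZ1, went from 10.9 ± 1.69 to 28.6 ± 1.41 CPM (log2 ratio 1.38 ± 0.09 SE, adjusted p = 3.75e-07), and Bcorl1, a relative of the corepressor gene Bcor, from 12.3 ± 0.628 to 15.1 ± 1.33 CPM (0.30 ± 0.06 SE, adjusted p = 0.0127). With the block, where 7.9% of all tested genes rose and 6.81% fell, 5 of the 30 rose and 1 fell, the additional genes being Bcor, Ep300 and Hdac2 upward and Gps2, a subunit of the NCOR1 complex, downward. Bcor, which the BTB domain of BCL6 binds, was at 60.8 ± 7.49 CPM in vehicle and 68.4 ± 7.95 CPM with HDM (0.17 ± 0.09 SE, adjusted p = 0.449; blocked adjusted p = 0.000101). Ncor1 and Hdac3, genes of the core repressor machinery, were not called in either fit, with log2 ratios of -0.001 ± 0.03 SE and -0.03 ± 0.03 SE.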

How the data were processed

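RNA from 12 libraries of macrophages was column-purified and made into stranded mRNA libraries, per the labels' protocols. The deposited table holds raw counts per gene. Per the submitters' processing notes the tools, listed with no order or role, include featureCounts 2.0.6, Subread, STAR 2.6.0c, cutadapt 4.5, Trim Galore 0.6.10 and FastQC 0.12.1. The notes name GRCm38 and mm39. Which one was counted on, and the strand setting, is not given in the sources used here.

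Counts were tested with edgeR 4.0.16 (quasi-likelihood, two-sided, R 4.3.3) with TMM factors, filterByExpr at its defaults and group as the only term, over 13530 genes, with Benjamini-Hochberg adjustment over all of them and a threshold of 0.05. SE is the absolute log2 fold change divided by the square root of F. CPM use TMM factors. Alternatives were DESeq2 1.42.0, limma-voom 3.58.1, other factors, no filter, left-out libraries and a block for the number, added after seeing the data where the block was joined with another choice. The test was tried first on simulated counts that held no split by library number, so that trial does not bear on the split seen in these libraries. Exon lengths are the union of GENCODE M21 exons, an annotation that may differ from the one counted on. Deviations from the group means correlated at 0.466 to 0.783 between equal numbers, all above 0.1, so numbers were treated as pairs; this rests on the data, and 3 of the 6 HDM libraries correlated more with another vehicle number. The rule for named genes was every Zbtb gene at 0.5 CPM or more, in full where called, and called genes of the other lists, up to 6 a list. Members, lists and role groups were chosen with earlier results of these data known. No 2 replicates of a group agreed within counting noise. The ratio of their spread to that noise (chi-square per degree of freedom) was lowest between numbers 3 and 4 and between 5 and 6. It was 2.38 and 3.78 with HDM and 4.35 and 3.08 in vehicle. Other pairs within numbers 1 to 4 gave 7.29 to 21.8, and pairs of 5 or 6 with 1 to 4 gave 51.3 to 100.3. P-values of numbers 5 and 6 alone rest on the spread within those close pairs. Some genes of the lists are not reported here.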

Additional observations from a re-analysis of the deposited data

Results flagged for a closer look

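In 4 of the 76 groups of 6 libraries examined, 1 library of a Zbtb gene lay far from the other 5; chance alone gives about 1 in 20. Zbtb3 was at 1.96 CPM in HDM 3, with the next library at 2.37 CPM. Zbtb17 was at 22.96 CPM in HDM 4, above the next at 20.9 CPM. Zbtb8os was at 22.6 CPM in vehicle 1, above the next at 20.6 CPM, and Zbtb37 was at 6.73 CPM in vehicle 2, under the next at 7.75 CPM. None of these genes was called in the fit without the block or with it.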

How the results depend on the processing

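Of the 5 falls, those of Zbtb43, Zbtb14, Zbtb6 and Zbtb39 held under all 24 alternatives, and that of Zbtb5 under 22; it was lost without numbers 5 and 6, with and without the block. With the replicate block, Zbtb calls numbered 12 lower and 2 higher, the other BTB genes 2 and the corepressor and partner genes 6. With the block and upper-quartile factors, or the block and total library size, the counts were 13 lower and 1 higher, 2, and 6. Of all 13530 tested genes, the block called 921 lower and 1069 higher. With upper-quartile factors added these were 1237 and 904, and with total library size 1339 and 884. Numbers 5 and 6 alone gave 10 lower and 1 higher, 2, and 5. Of all genes, 567 of 13449 were called lower there and 572 higher, against 334 and 393 of 13530 in the main fit. Without numbers 5 and 6 the corepressor and partner count was 4, where 1076 of all 13650 tested genes were called. With the block there it was 5, where 1741 were called. Of the Zbtb genes, that blocked fit called 4 higher (Zbtb7b, Zbtb10, Zbtb18 and Zbtb20) and 7 lower. Of all 13650 tested genes it called 1083 higher and 658 lower. DESeq2 called 8 Zbtb genes lower, and 429 of all 13530 tested genes. Zbtb20 changed sign, to -0.23, in numbers 5 and 6 alone. The cause of these shifts was not tested. Over 912 refits of single Zbtb genes, 857 kept direction where called and side of the threshold, 52 gained a call, 2 lost one and 1 reversed. Another scaling moved the median of all genes by at most 0.02 (log2). Zbtb16 and Zbtb32 rest on 404 and 380 reads over all libraries.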
